A study of Mus musculus with 2 samples.

Results

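The 9 genes described here belong to bone morphogenetic protein (BMP) signalling: the ligand Bmp4, the receptor Bmpr1a, the decoy receptor Bambi, the inhibitory Smads Smad6 and Smad7, and the target genes Id1, Id2, Id3 and Id4. They were chosen by symbol, and each matched 1 of the 31053 gene rows of both count tables. BMP ligands bind pairs of type I and type II receptors, which phosphorylate Smad1, Smad5 and Smad9, and these enter the nucleus with Smad4 and switch on target genes, among them the Id genes. Id proteins lack a DNA-binding domain and hold back basic helix-loop-helix factors by capturing their E protein partners. In the oligodendrocyte lineage BMP signalling is known as a brake on differentiation that favours astrocytes, and Id2 and Id4 are known inhibitors of oligodendrocyte maturation.

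Single-cell RNA sequencing libraries were made from male C57/BL6 mice whose middle cerebral artery had been occluded for 60 min on postnatal day 10 and reperfused for 2 weeks. Lateral striatum of the occluded side (ipsilateral) and of the opposite side (contralateral) gave 1 library each, both pooled from 3 animals. Cells had been sorted for the surface antigens A2B5 (early glial progenitors), O4 (later stages of the lineage) or both. The contralateral side also belongs to occluded animals, and no unoperated animals are among the samples used here. With 1 library a side there is no replicate check and no test. All intervals below are therefore 95% intervals for counting error only, and they do not cover differences between animals or preparations. Intervals of levels and ratios treat each counted molecule as independent, so they also leave out uneven levels among the cells of a class.

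The contralateral library held 2066 barcodes and 36063045 UMIs (unique molecular identifiers, which count captured RNA molecules and not their amplified copies), and the ipsilateral library 2775 barcodes and 54788795 UMIs. The rule of at least 500 genes and at most 15% mitochondrial UMIs kept 1913 and 2505 cells, and the libraries shared 0 barcodes. Clusters were named from marker genes, and 6 classes were large enough to describe. Oligodendrocyte precursor (OPC)-like cells numbered 319 contralateral and 408 ipsilateral, committed-like cells (between precursor and mature stage) 128 and 255, and mature-like oligodendrocytes 521 and 943. The tissue label of oligodendrocytes did not cover all cells, since 423 and 428 neuroblast-like, 184 and 128 endothelial-like and 30 and 29 astrocyte-like cells were also present. Clusters holding 294 and 299 cells stayed unnamed. Levels are UMIs summed over the class per 1000000 UMIs of that class (CPM). Where 2 values of the same class or cluster are joined by "and", the contralateral one comes first. Where they belong to 2 named genes or clusters, they follow the order of the names.

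On the mouse genome build GRCm38 (mm10; gene models of GENCODE M21) Id1 lies at chr2:152736251-152737410 on the plus strand, Id2 at chr12:25093799-25097140 on the minus strand, Id3 at chr4:136143497-136145755 on the plus strand and Id4 at chr13:48261228-48266026 on the plus strand. Smad6 lies at chr9:63953076-64022059, Bmp4 at chr14:46383520-46390669 and Bmpr1a at chr14:34410734-34503341, all on the minus strand. Genes on the opposite strand overlap Id4 (A330033J07Rik and Gm49291), Bmp4 (Gm15217 and Gm15222) and Bmpr1a (Gm17110), and no source used here says whether the counting took strand into account.

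The promoters of the Id genes and of Smad6 are shown as examples of members known as targets of BMP Smads. In the RefSeq table (GRCm38.p6) 6 of the 9 members were matched and used; Id1 was not matched, and 2 genes on a chromosome whose sequence is not printed here were left out. Each line runs from 250 bases before to 50 bases after the RefSeq start, 5′ to 3′ on the gene's strand. This start can differ from the end of the GENCODE span given above. The Id2 and Id3 windows lie wholly within those spans, and the Id4 window ends before its span begins. Distances below are from the RefSeq start. Capitals mark GGCGCC (a motif of BMP-regulated Smads), GTCTAGAC (the palindromic Smad3 and Smad4 motif) or CAGAC (the Smad box), each searched on both strands, and none of the 3 contains another. The windows are chr12:25096043-25096342 on the minus strand for Id2, chr4:136143572-136143871 on the plus strand for Id3, chr13:48260866-48261165 on the plus strand for Id4 and chr9:64022010-64022309 on the minus strand for Smad6.
Id2: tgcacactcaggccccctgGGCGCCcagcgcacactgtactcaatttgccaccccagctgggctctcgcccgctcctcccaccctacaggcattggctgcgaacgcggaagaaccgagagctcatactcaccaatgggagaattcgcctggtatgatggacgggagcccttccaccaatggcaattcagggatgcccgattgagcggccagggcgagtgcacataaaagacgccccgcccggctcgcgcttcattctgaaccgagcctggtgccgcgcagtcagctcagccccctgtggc
Id3: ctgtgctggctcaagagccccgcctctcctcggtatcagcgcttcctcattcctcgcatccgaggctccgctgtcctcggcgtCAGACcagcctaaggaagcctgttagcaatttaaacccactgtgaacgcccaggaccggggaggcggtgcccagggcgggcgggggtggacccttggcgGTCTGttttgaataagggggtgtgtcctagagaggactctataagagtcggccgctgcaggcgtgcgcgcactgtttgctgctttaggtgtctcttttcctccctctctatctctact
Id4: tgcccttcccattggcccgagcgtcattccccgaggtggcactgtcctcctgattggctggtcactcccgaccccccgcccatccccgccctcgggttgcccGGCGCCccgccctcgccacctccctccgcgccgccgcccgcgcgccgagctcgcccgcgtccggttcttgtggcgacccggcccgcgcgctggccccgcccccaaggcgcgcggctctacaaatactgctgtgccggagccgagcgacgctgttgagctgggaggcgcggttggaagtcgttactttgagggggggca
Smad6: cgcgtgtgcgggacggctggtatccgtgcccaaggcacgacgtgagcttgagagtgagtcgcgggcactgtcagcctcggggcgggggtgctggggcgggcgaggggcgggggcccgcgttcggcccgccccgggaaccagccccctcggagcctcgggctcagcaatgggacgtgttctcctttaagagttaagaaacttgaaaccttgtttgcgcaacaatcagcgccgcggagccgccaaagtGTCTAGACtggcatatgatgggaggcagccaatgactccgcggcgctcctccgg
GGCGCC began 231 bases upstream of the RefSeq start in Id2, 148 in Id4 and 198 in Bmpr1a. It was held by 11.9% of 32851 promoters of this length. Id3 had CAGAC 167 bases and its reverse complement 68 bases upstream, a motif found in 49.6% of promoters. GTCTAGAC was in the Smad6 window, 4 bases upstream of the start, and in 0.213% of promoters (70 in all). The Bmp4 window held none of these letters. A match is a description of the letters and not a bound site.

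Bmp4, which encodes the BMP ligand, was concentrated in the committed stage. Its level was 82.6 CPM (73.2 to 92.8) in contralateral and 118.6 CPM (109.98 to 127.8) in ipsilateral OPC-like cells, 934 and 967 CPM in committed-like cells, and 2.64 and 4.80 CPM in mature-like cells. Committed-like cells thus stood above both neighbouring stages in both libraries, and they supplied 88.0% and 86.4% of all Bmp4 UMIs. A Bmp4 UMI was found in 96.9% and 94.9% of committed-like cells, or 93.6% and 89.9% with every cell thinned to 6604 UMIs, where neuroblast-like cells had 2.51% and 0.917%. Astrocyte-like cells had 0 Bmp4 UMIs in both libraries, which allows up to 9.58 and 8.67 CPM. Over 7 settings of filter and clustering, which redraw the classes, Bmp4 was between 1185 and 1332 CPM contralateral and between 1108 and 1246 CPM ipsilateral in committed-like cells, and between 56.0 and 122.0 CPM in ipsilateral OPC-like cells. Within the committed class, cluster 3, led by Bmp4 itself and by Gpr17, a receptor of newly committed cells, had 1580 CPM (1511 to 1652) and 1418 CPM (1377 to 1460). Cluster 1, with Tcf7l2 among its leading genes, had 642 CPM (613 to 673) and 647 CPM (623 to 671). The order of these clusters was the same on both sides, and cluster 3 exceeded cluster 1 beyond the counting intervals.

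Among precursors the Bmp4 level depended on the cluster. The 2 large OPC-like clusters were cluster 11, led by Cdo1, Pdgfra and Cspg5, and cluster 7, led by Gap43, Ccnd1 and Lhfpl3. Cluster 11 had 51.9 and 53.5 CPM of Bmp4, and cluster 7 had 150.9 and 168.5 CPM. Neither cluster differed between libraries beyond counting error. The ratio was 1.03 (0.786 to 1.36) in cluster 11 and 1.12 (0.935 to 1.34) in cluster 7, whereas the class as a whole had 1.44 (1.25 to 1.66). Cluster 11 held 216 contralateral and 174 ipsilateral cells and cluster 7 held 90 and 215, so different clusters hold most of this class in the libraries. At the same mix of clusters the log2 ratio of Bmp4 in OPC-like cells was 0.10, against 0.50 without it.

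**Figure D1:**
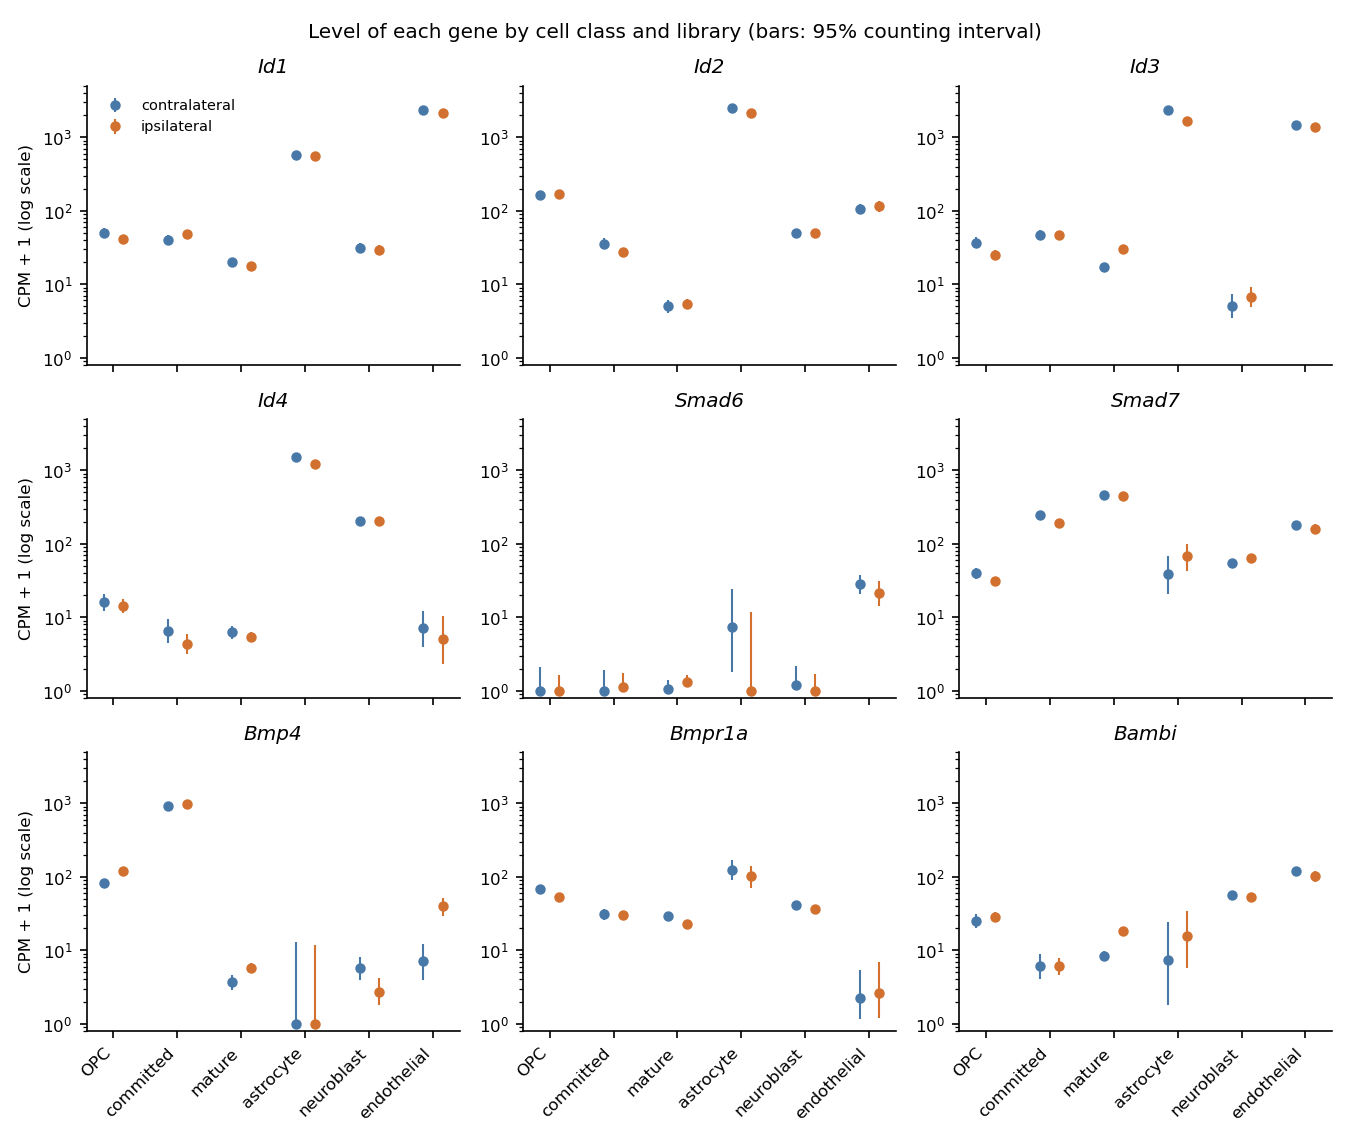
Level of each of the 9 genes (CPM + 1, log axis) in 6 cell classes of the contralateral and ipsilateral libraries; points are class sums and bars 95% counting intervals. Bmp4 peaks in committed-like cells at 934 and 967 CPM, Smad7 in mature-like cells, the 4 Id genes are high in astrocyte-like cells, and Smad6 is highest in endothelial-like cells at 27.2 and 20.4 CPM.

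Bmpr1a encodes a type I receptor that BMP4 binds with high affinity. Its level was 67.7 CPM (59.3 to 77.0) and 52.4 CPM (46.7 to 58.6) in OPC-like cells, 30.1 and 29.1 CPM in committed-like cells and 28.4 and 21.4 CPM in mature-like cells. OPC-like cells were therefore the highest of the 3 stages on both sides, and committed-like and contralateral mature-like cells could not be told apart by their intervals. Cluster 11 had 76.6 and 60.0 CPM and cluster 7, the cluster richer in the ligand, 43.4 and 49.9 CPM. Astrocyte-like cells had 125 CPM (88.6 to 170.3) and 101 CPM (70.4 to 141), and neuroblast-like cells 39.9 and 35.0 CPM. Endothelial-like cells had 2 UMIs in each library, at or below the limit of 3 counts. With every cell thinned to 6604 UMIs, a Bmpr1a UMI was found in 37.3% and 28.8% of OPC-like cells (49.8% and 46.3% unthinned), against 1.44% of contralateral and 0 of 101 ipsilateral endothelial-like cells.

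Bambi encodes a transmembrane protein that resembles a type I receptor without the kinase domain and dampens BMP and TGF-beta signals. It was 23.9 CPM (19.0 to 29.7) and 27.2 CPM (23.2 to 31.8) in OPC-like cells and 5.05 and 5.05 CPM in committed-like cells. Mature-like cells had 7.37 CPM (6.05 to 8.89) and 17.4 CPM (15.8 to 19.0), the largest separation between libraries among the lineage values of this gene. Bambi was 55.7 and 52.6 CPM in neuroblast-like and 118.9 and 101.4 CPM in endothelial-like cells, above OPC-like cells, while astrocyte-like cells had 2 and 5 UMIs (6.39 and 14.4 CPM). Most neuroblast-like UMIs of Bambi came from cluster 2, led by Prokr2 and Meg3, with 193 and 172 CPM, while cluster 17, led by mitosis genes, had 6.31 and 7.90 CPM. Clusters named here beyond the classes were picked after their values were seen.

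Smad7 and Smad6 encode the inhibitory Smads, which block receptor signalling and are themselves induced by it. Smad7 was 38.8 and 29.8 CPM in OPC-like cells, 245 CPM (230 to 261) and 191 CPM (181 to 201) in committed-like cells, and 462 CPM (452 to 473) and 453 CPM (445 to 461) in mature-like cells. The committed-like level depended on the class borders, with 150.9 to 199 CPM contralateral and 108 to 153 CPM ipsilateral over 7 settings of filter and clustering. Within that class cluster 3 had 62.5 and 42.2 CPM and cluster 1 had 328 and 296 CPM. Mature-like clusters 10, 4, 15 and 0 had 389.5, 414, 485 and 516 CPM in the contralateral library. Over both libraries cluster 10 had 378 CPM, cluster 4 had 411 CPM, cluster 15 had 480 CPM (468 to 494) and cluster 0 had 486 CPM (474 to 499). The intervals of clusters 15 and 0 overlapped, and cluster 23 had 512 CPM (489 to 536). A Smad7 UMI was present in 99.2% and 98.6% of mature-like cells, and this class supplied 74.3% and 79.5% of all Smad7 UMIs.

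Smad6 was at 0 UMIs in both libraries in OPC-like cells, which allows up to 0.875 and 0.514 CPM. Committed-like cells had 0 UMIs in the contralateral library, which allows up to 0.758 CPM, and 1 UMI in the ipsilateral one, and mature-like cells had 1 and 9 UMIs. Endothelial-like cells had 45 and 25 UMIs, or 27.2 CPM (19.8 to 36.3) and 20.4 CPM (13.2 to 30.2), and held 86.5% and 67.6% of the Smad6 UMIs of the libraries. At this depth Smad6 was not detectable in precursors.

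**Figure D2:**
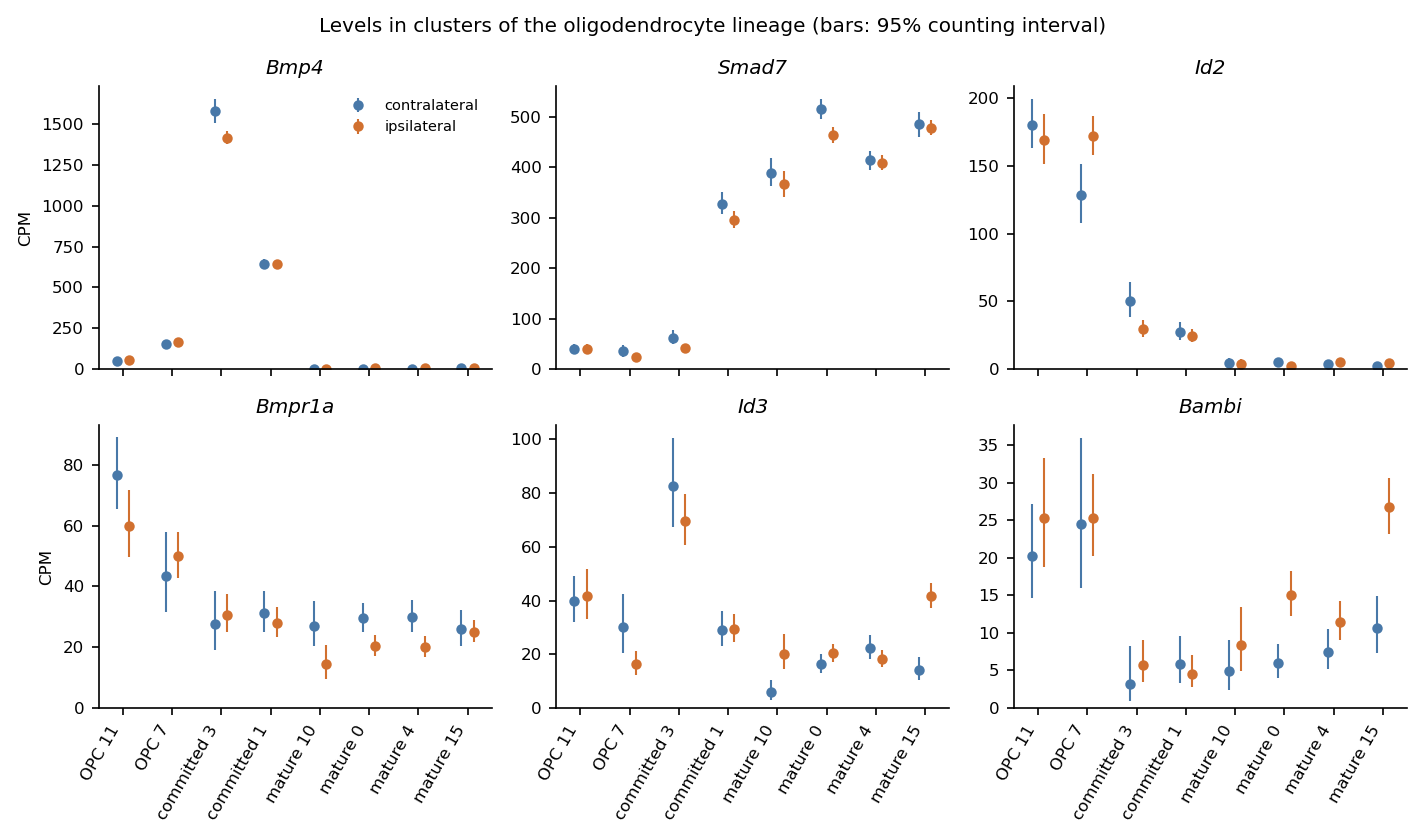
CPM (linear axis) of 6 members in 8 clusters of the oligodendrocyte lineage, precursors at the left and mature-like clusters at the right, by library; bars are 95% counting intervals. Bmp4 is highest in committed cluster 3 (1580 and 1418 CPM), where Smad7 is still 62.5 and 42.2 CPM, and Id2 and Bmpr1a are highest in precursors.

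The Id genes did not share 1 pattern across the lineage. Id2 was 164 CPM (151 to 178) and 167 CPM (157 to 178) in OPC-like cells, 34.6 and 26.4 CPM in committed-like cells and 3.99 and 4.39 CPM in mature-like cells. This stepwise order was the same on both sides, with no overlap of the intervals between stages. Id1 was 49.3 and 40.2 CPM in OPC-like, 39.4 and 47.8 CPM in committed-like and 19.0 and 16.8 CPM in mature-like cells, so its first 2 stages could not be ordered. Id3 was 35.9 and 24.0 CPM in OPC-like and 45.7 and 46.1 CPM in committed-like cells, where cluster 3 had 82.8 and 69.7 CPM and cluster 1 had 29.0 and 29.3 CPM. Thus the cluster richest in Bmp4 was also the lineage cluster richest in Id3 among those with at least 20 cells in each library. Id4 was low at every stage, with 15.2 and 13.4 CPM in OPC-like and 5.21 and 4.36 CPM in mature-like cells, and 1 ipsilateral precursor held 29.5% of the Id4 UMIs of its class.

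All 4 Id genes were far higher in astrocyte-like cells than in any lineage stage. Id1 was 569 and 552 CPM there. Id2 was 2517 CPM (2344 to 2699) and 2138 CPM (1987 to 2298), and Id4 was 1530 and 1211 CPM. Id3 was 2322 CPM (2156 to 2497) and 1693 CPM (1559 to 1836). These sums rest on 30 and 29 cells, and the summed level of the 11 mature oligodendrocyte markers in them was 422 and 4106 CPM (all 11 higher in the ipsilateral library, Mal the top one), whose part in the differences was not tested. The unnamed cluster 9, led by Fxyd1, Aldoc, Clu and Gfap, with 87 and 89 cells, also had all 4, at 322 and 367 CPM for Id1, 390 and 440 CPM for Id2, 750.4 and 582 CPM for Id3 and 676 and 814 CPM for Id4.

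In other classes the Id genes differed from each other. Endothelial-like cells had 2363 CPM (2289 to 2438) and 2165 CPM (2083 to 2249) of Id1 and 1449 and 1389 CPM of Id3, with 6.03 and 4.09 CPM of Id4 (10 and 5 UMIs). Neuroblast-like cells had 205 CPM (193 to 219) and 203 CPM (191 to 216) of Id4 but 4.07 and 5.70 CPM of Id3. Within the neuroblast-like class the small cluster 18, led by Eomes and Tbr1 and holding 13 and 16 cells, had 623 and 674 CPM of Id2, against 20.9 and 24.2 CPM in cluster 5, the largest cluster of the class.

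Counted per cell, UMIs of all 4 Id genes were present together in 83.3% and 65.5% of astrocyte-like cells. In OPC-like cells the figure was 0.313% and 0.980%, and in mature-like cells 0.192% and 0.318%. No Id UMI was found in 47.6% and 47.7% of mature-like cells, although their median depth of 27308 and 28427 UMIs was above the 10148 and 12525 UMIs of OPC-like cells, of which 19.7% and 15.4% had none. Endothelial-like cells mostly had 2 (54.9% and 43.0%) or 3 (41.8% and 48.4%). These shares were not thinned to a common depth, so differences in depth enter any comparison between classes.

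**Figure D3:**
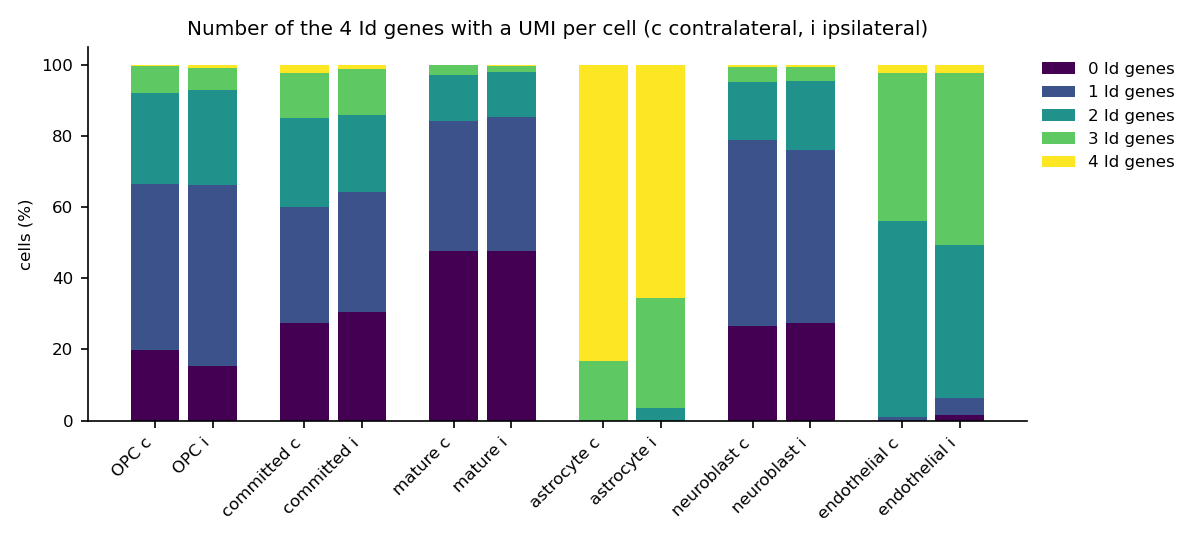
Share of cells (percent, stacked to 100) with UMIs of 0 to 4 of the Id genes, by class and library (c contralateral, i ipsilateral). Cells with all 4 make up 83.3% and 65.5% of the astrocyte-like class and cells with none 47.6% and 47.7% of the mature-like class. The shares are not thinned to a common depth.

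The next comparison asks how the levels differ between the injured and the opposite side within a class. A gene was called higher or lower at an absolute log2 ratio of at least 0.5 (ipsilateral over contralateral, 5 CPM added to both), among genes with at least 50 summed UMIs. In mature-like cells 2 of the 8 measured members, Bambi and Id3, were higher and 0 were lower, against a background of 0.801% higher and 0.258% lower among 10856 genes. The median of the 8 was 0.02, and that of all genes 0.01, with 4 members above and 4 below 0.

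Bambi was 2.35 times (1.91 to 2.93) as high in ipsilateral mature-like cells, a log2 ratio of 0.85. The ipsilateral value was above the contralateral one in each of the 4 mature-like clusters with at least 20 cells in both libraries: 5.98 and 15.1 CPM in cluster 0, 7.52 and 11.4 CPM in cluster 4, 4.92 and 8.40 CPM in cluster 10, and 10.7 and 26.7 CPM in cluster 15. The intervals of clusters 0 and 15 did not overlap between libraries, while those of clusters 4 and 10 did. After thinning every cell to 18229 UMIs, which left out 50 and 97 shallower cells, a Bambi UMI was present in 9.77% (7.24 to 12.8) and 14.3% (12.0 to 16.8) of mature-like cells, compared with 13.6% and 20.4% unthinned. The intervals of the thinned shares overlapped. In committed-like cells thinned to the same depth, which had the lowest Bambi level of the lineage, the shares were 8.05% and 6.52%.

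Id3 was 16.2 CPM (14.2 to 18.4) and 28.9 CPM (26.9 to 30.97) in mature-like cells, 1.79 times (1.54 to 2.07) as high on the ipsilateral side. The difference was uneven over clusters: cluster 15, led by the immediate early genes Arc, Egr2 and Egr3, had 14.2 and 41.6 CPM, and cluster 10 had 5.91 and 20.3 CPM. In clusters 0 and 4, by contrast, Id3 was 16.4 and 20.4 CPM and 22.3 and 18.2 CPM, with overlapping intervals. Cluster 23, led by Ifi27l2a, C4b and Serpina3n, held 4 contralateral and 138 ipsilateral cells, and its ipsilateral Id3 level was 43.8 CPM (37.2 to 51.3). Without cluster 23 the log2 ratio was 0.58, and at the same mix of clusters 0.51, both still past the fold. Thinned to 18229 UMIs, 17.8% (14.5 to 21.6) and 23.3% (20.5 to 26.3) of cells had an Id3 UMI, against 24.6% and 28.1% unthinned. Among neuroblast-like cells with at least 18229 UMIs, thinned alike, the shares were 6.78% and 12.5%. The median depth of that class was 9277 and 9960 UMIs, so most of its cells are left out of these shares. Its level of 4.07 and 5.70 CPM of Id3 covers all its cells. The intervals of the thinned mature-like shares overlapped.

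Bmpr1a lay the other way in mature-like cells, at 28.4 CPM (25.8 to 31.3) and 21.4 CPM (19.7 to 23.2), a ratio of 0.754 (0.664 to 0.856). Its log2 ratio of -0.34 was short of the fold. Ipsilateral values were lower in clusters 0 (29.5 and 20.5 CPM), 4 (30.1 and 20.0 CPM) and 10 (27.1 and 14.3 CPM), and close to the contralateral one in cluster 15 (25.9 and 25.1 CPM). Bmp4 was 2.64 CPM (1.88 to 3.61) and 4.80 CPM (4.01 to 5.69), a ratio of 1.82 (1.26 to 2.67) whose log2 value was 0.36 with 5 CPM added and 0.67 with 1 CPM added. Smad7, Id1, Id2 and Id4 had ratios between 0.836 and 1.10 in the class, but under a stricter filter, which left 65 and 132 mature-like cells, the log2 ratio of Id1 turned from -0.14 to 0.99, past the fold. Among these 4 only Smad7 was measured closely, at 0.979 (0.9503 to 1.01). The class ratio of Id1 hid 1 cluster, since cluster 0 had 22.8 and 9.75 CPM, a ratio of 0.428 (0.313 to 0.582), and the other 3 shared clusters had ratios between 0.946 and 1.30.

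Markers of other cell types were summed beside these values. Over both libraries Id3 was also 850 CPM in the mural-like cluster 22 and 555 CPM in the unnamed cluster 19, led by Dcn and C1qb. In mature-like cells the 10 mural markers summed to 3.45 and 3.37 CPM (4 higher, 4 lower). The 10 microglia markers summed to 18.4 and 22.5 CPM (5 higher, 4 lower). The 9 fibroblast markers summed to 0.068 and 0.988 CPM (6 higher, 0 lower). The part of these in the Bambi and Id3 values was not tested. The 10 endothelial markers summed to 35.4 and 27.4 CPM in mature-like cells (8 of 10 lower on the ipsilateral side, none at 0, Kdr the top one), and the 10 astrocyte markers to 30.98 and 31.6 CPM (5 higher, 5 lower, none at 0). The 11 neuroblast markers summed to 139.2 and 174.4 CPM (3 higher, 8 lower, none at 0), most of it Tubb3 at 107 and 147 CPM, and the 10 OPC markers to 66.2 and 82.3 CPM (all 10 higher, none at 0, Matn4 the top one); the part of either in the Bambi and Id3 values was not tested. Among cells with no UMI of the endothelial genes Cldn5 and Flt1 the log2 ratios were 0.97 for Bambi and 0.59 for Id3. Among cells with no UMI of the astrocyte genes Aqp4 and Gja1 they were 0.89 and 0.63.

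**Figure D4:**
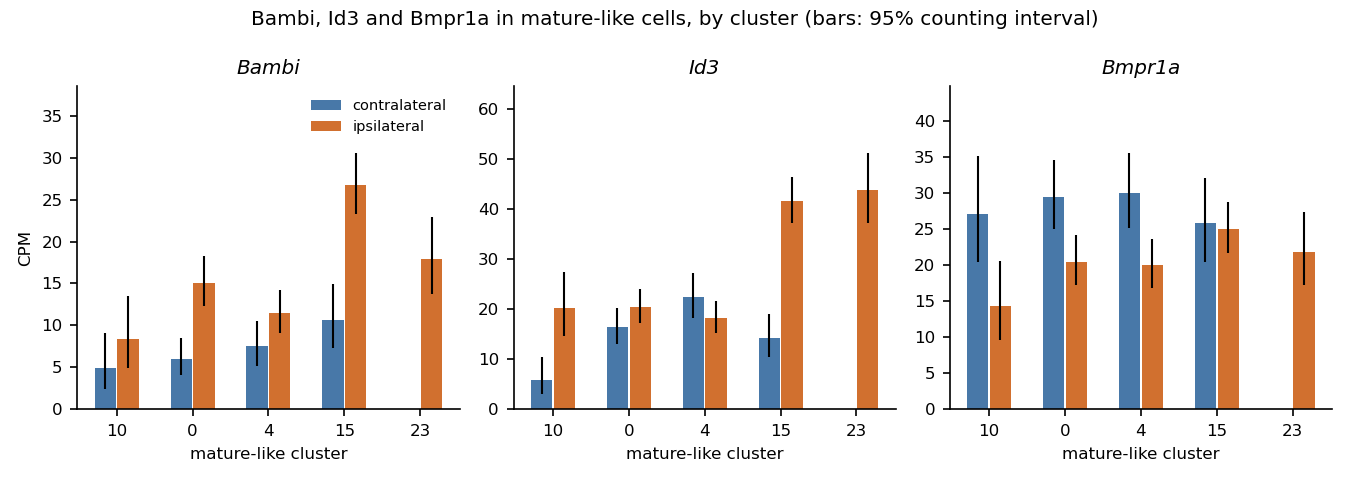
CPM of Bambi, Id3 and Bmpr1a in the mature-like clusters by library, with 95% counting intervals; the contralateral bar of cluster 23 is left out because it rests on 4 cells. Ipsilateral Bambi is above contralateral Bambi in clusters 10, 0, 4 and 15, and Id3 differs most in clusters 10 and 15.

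In OPC-like cells 0 of the 8 measured members passed the fold, against 2.42% higher and 3.02% lower among 10978 genes. Bmp4 and Id3 were just short of it on opposite sides, at 0.50 and -0.50. The members' median was -0.20, with 3 above and 5 below 0, and that of all genes -0.05. Id3 was 35.9 CPM (29.8 to 42.8) and 24.0 CPM (20.2 to 28.3), a ratio of 0.668 (0.520 to 0.858), which cluster 7 showed (30.2 and 16.4 CPM) and cluster 11 did not (39.9 and 41.6 CPM). At the same mix of clusters its log2 ratio was -0.27. After thinning to 6604 UMIs, leaving out 40 and 33 cells, Id3 was found in 19.7% (15.2 to 24.9) and 12.3% (9.12 to 16.0) of cells, compared with 24.5% and 20.6% unthinned and, thinned, 2.51% and 1.83% of neuroblast-like cells. The intervals of the thinned OPC-like shares overlapped.

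Bmpr1a had a ratio of 0.774 (0.650 to 0.922) and Smad7 of 0.768 (0.609 to 0.969) in OPC-like cells. Both were below 1 beyond counting error and neither passed the fold. At the same mix of clusters the log2 ratio was -0.21 for Bmpr1a, against -0.34 without it. For Smad7 it was -0.22, against -0.33. As given above, Bmpr1a was lower on the ipsilateral side in cluster 11 but not in cluster 7. Id2, Id4 and Bambi had intervals that included 1, and Id1 had 0.816 (0.667 to 1.0001). The summed astrocyte markers of this class were 484 and 368 CPM, with Slc1a2 the top one in both libraries and Gfap at 0 in the contralateral one, and the mature markers 476 and 680 CPM, with Klk6 at 0 in the contralateral library. In precursors with no UMI of Aqp4 and Gja1, 3 members passed the fold: Id3 at -0.66, Id4 at -0.71 and Bmp4 at 0.50. The share of all genes past the fold was not counted among those cells.

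In committed-like cells 0 of 7 measured members passed the fold, against 1.63% higher and 2.03% lower among 10266 genes, and the median of the members was 0.00. Bmp4 had a ratio of 1.04 (0.995 to 1.08). Smad7 had 0.777 (0.716 to 0.844) and Id2 0.764 (0.612 to 0.957). The ipsilateral class held more cells of the Smad7-poor cluster 3, 152 of 255 against 66 of 128. At the same mix of clusters the log2 ratio was -0.18 for Smad7, against -0.36 without it, and -0.39 for Id2, against -0.33. The ipsilateral class also held 35 Scrublet doublet calls against 0, and its 11 mature markers summed to 9566 CPM against 12965 CPM, all 11 lower. The part of these differences in the ratios was not tested. Without the Scrublet calls Id2 passed the fold, at -0.60, and the share of all genes past it was not counted in that setting. Within cluster 1 alone Smad7 was 328 and 296 CPM, a log2 ratio of -0.15, and within cluster 3 alone 62.5 and 42.2 CPM, a log2 ratio of -0.52. Id1 differed in direction between these clusters, with 58.4 and 86.7 CPM in cluster 3 and 30.8 and 20.2 CPM in cluster 1. That contrast between clusters was not tested.

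**Figure D5:**
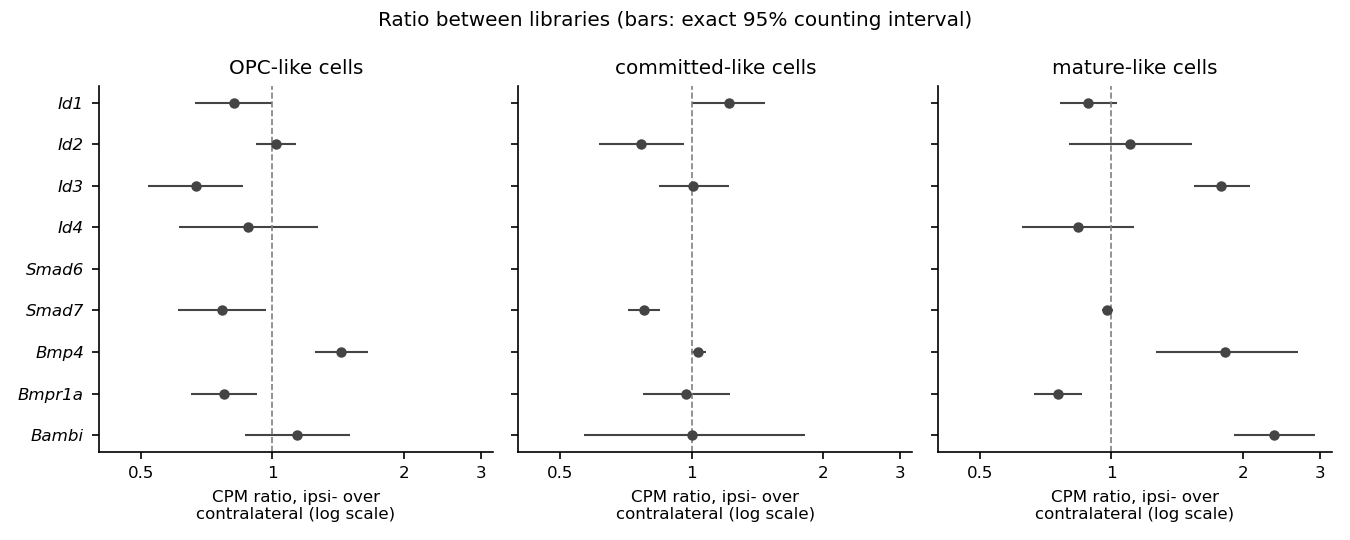
Ratio of CPM, ipsilateral over contralateral (log axis), of each member with at least 50 summed UMIs in OPC-like, committed-like and mature-like cells, with exact 95% counting intervals; the dashed line marks equal levels. Bambi at 2.35, Bmp4 at 1.82 and Id3 at 1.79 lie farthest from 1, all in mature-like cells.

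Outside the lineage 1 member passed the fold in 1 of 3 classes. In neuroblast-like cells 0 of 7 measured members passed the fold, against 2.01% higher and 1.19% lower among 10210 genes, and Id4 had a ratio of 0.988 (0.906 to 1.08) and Smad7 of 1.19 (1.01 to 1.40). In astrocyte-like cells 0 of 5 passed, against 11.2% higher and 10.8% lower among 2241 genes. All 5 were below 0, with a median of -0.29 against -0.03 for all genes. Beyond counting error these were Id3 at 0.729 (0.653 to 0.814), Id4 at 0.791 (0.692 to 0.904) and Id2 at 0.850 (0.767 to 0.940). In this class 1 ipsilateral cell held 23.2% of the Id3 UMIs of its library. The 10 astrocyte markers summed to 19326 and 17084 CPM (7 lower, 3 higher) and the 11 mature markers to 422 and 4106 CPM. Their part in these ratios was not tested. In endothelial-like cells 1 of 7, Bmp4, was higher, against 5.77% higher and 3.31% lower among 6685 genes, and Id1 had a ratio of 0.916 (0.872 to 0.963). That Bmp4 value of 6.03 and 38.4 CPM rested on 1 ipsilateral cell with 91.5% of the 47 UMIs, and without the cell richest in Bmp4 in each library the log2 ratio was -0.32. The 10 endothelial markers of the class summed to 21245 and 19956 CPM (8 lower, 2 higher) and the 11 mature markers to 1426 and 2403 CPM. Their part in the Id1 ratio was not tested.

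The other genes of the pathway, in 8 lists of 71 genes, showed mainly small ratios in the 3 lineage classes, and the lists are described by counts only. Among all genes 2.42% were higher and 3.02% lower in OPC-like cells. The shares were 1.63% higher and 2.03% lower in committed-like cells, and 0.801% higher and 0.258% lower in mature-like cells. The OPC-like levels below are of the whole class. They were not set to the same mix of cluster 11 (216 and 174 cells) and cluster 7 (90 and 215 cells). Of the other ligands, Bmp7 was 84.0 and 63.4 CPM in OPC-like cells, Gdf11 29.2 and 22.8 CPM and Bmp2 19.0 and 13.7 CPM. None of these 3 passed the fold and all were below 0, with a median of -0.36. In mature-like cells Bmp2 was 27.1 and 33.6 CPM, a log2 ratio of 0.27. None of the 4 measured receptors passed in any lineage class; Bmpr2, the type II receptor, was 92.5 and 79.1 CPM in OPC-like, 65.2 and 69.9 CPM in committed-like and 47.2 and 43.0 CPM in mature-like cells. The receptor-regulated and common Smads likewise had 0 of 3 past the fold in each class, with Smad1 at 57.2 and 58.2 CPM in OPC-like and 23.2 and 28.2 CPM in mature-like cells.

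Secreted antagonists were low. In OPC-like cells 2 of 7 measured were lower, against 3.02% of all genes. These were Sostdc1 at 11.1 and 6.33 CPM and Chrd, which encodes chordin, at 9.63 and 5.31 CPM. Over both libraries Sostdc1 had 75 UMIs and Chrd had 64. Nog, encoding noggin, was 27.4 and 23.8 CPM. In committed-like and mature-like cells 0 of 2 measured antagonists passed. Of 7 measured intracellular regulators 0 passed in each class. In OPC-like cells 6 of the 7 were below 0, Pmepa1 at 474 and 343 CPM and Tob1 at 170 and 123 CPM among them.

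Among the other target genes Junb, an immediate early gene also induced by BMP and by much else, was higher in all 3 classes, at 586 and 1007, 156 and 325, and 466 and 902 CPM in the order of the stages. It was the only gene of its list past the fold, and Hey1 (71.8 and 52.7 CPM) and Sox9 (18.7 and 13.3 CPM) had log2 ratios below 0 in OPC-like cells. In the TGF-beta arm Ltbp1, which encodes a protein that stores latent TGF-beta in the matrix, was lower in OPC-like cells (38.5 and 22.6 CPM) and in committed-like cells (25.8 and 12.6 CPM). Smad3, a mediator of TGF-beta, was lower in committed-like cells at 21.0 and 12.2 CPM. No gene of that arm passed in mature-like cells, where 7 of 11 were measured.

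The last list holds the E proteins that Id proteins capture and the helix-loop-helix factors around them. In OPC-like cells 2 of 9 measured were lower, against 3.02% of all genes. These were Hes1 at 291 and 172 CPM and Hes5 at 317.5 and 188.5 CPM, both better known as Notch targets. Tcf3, an E protein, was 75.0 and 89.2 CPM there and did not pass the fold. None of 9 measured passed in committed-like and none of 7 in mature-like cells, where Olig2, a factor of the whole lineage, was 208 and 242 CPM.

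Over the 12 points of 6 classes in 2 libraries, the genes whose log2 level lay closest to a member are given as a description. The points share libraries and differ in depth. Bmp4 was closest to Rep15 (Pearson's r = 0.963), Rnf128 and Slc5a7, Smad7 to Cd82 (0.975), Myo1d and Car14, and Smad6 to Lama5 (0.999), Notum and Itpripl2. The values for Smad6 rest mainly on the endothelial-like points, with 45 and 25 UMIs, since no other point held more than 9. Id1 was closest to Copz2 (0.989), Id2 to Cpe (0.984), Id3 to Cpt1a (0.977) and Id4 to Otx1 (0.995). Bambi was closest to Pkig (0.972). Between members r was 0.931 for Id1 and Id3 and 0.740 for Id2 and Id4, but 0.189 for Id1 and Id4.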

How the data were processed

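The 2 deposited tables of UMI counts per gene and cell were 1 per side, made by the authors with Cell Ranger 3.1.0 and mm10, per the submitters' processing notes; no normalization is recorded. Barcodes with at least 500 genes and at most 15% mitochondrial UMIs were kept. Cells were scaled to 10000 UMIs and clustered with scanpy 1.11.5 (2000 variable genes without the members and BMP or TGF-beta genes, 30 principal components, 15 neighbours, Leiden resolution 1). Clusters were named from marker lists, with naming thresholds set after the data were seen, so the names are rebuilt and not the authors' own. Doublets were kept; Scrublet, whose automatic score thresholds differed (0.274 and 0.154), marked 14 contralateral and 101 ipsilateral cells, which an alternative removed. Class sums were given as CPM with exact Poisson intervals, ratios with exact conditional (Clopper-Pearson) intervals and shares with exact binomial intervals, all at 95% and for counting error only. Thinned shares leave out, in every class, the cells with fewer UMIs than the set depth. Log2 ratios have 5 CPM added, and genes with under 50 summed UMIs in a class were not read as measured. A count of 0 allows up to 3 counts. The 9 members were described in each class of at least 20 cells a library; from the other lists up to 4 genes with the largest absolute log2 ratio in a lineage class were named, and the 3 most alike genes per member were taken over log2 CPM. The members and lists were chosen with earlier results of these data known. Alternatives covered the filter, the resolution, the clustering, the added CPM, the UMI minimum, the mix of clusters, doublets and cells with markers of other types. The ratio calculation was tested on simulated data.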

Additional observations from a re-analysis of the deposited data

Results flagged for a closer look

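Id3 had log2 ratios of opposite sign in 2 stages of the lineage. It was 0.68 in mature-like and -0.50 in OPC-like cells, a gap of 1.18 between the ratios. The gap drew attention because the class values lie on different sides of 0; the difference was not tested, since each side is 1 library. Within clusters Id3 was higher on the ipsilateral side in mature-like cluster 15 (14.2 and 41.6 CPM) and lower in OPC-like cluster 7 (30.2 and 16.4 CPM). OPC-like cluster 11 had 39.9 and 41.6 CPM, and 1 contralateral precursor held 15.4% of the Id3 UMIs of its class.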

How the results depend on the processing

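With 1 library a side no replicate could be left out, and differences between animals were not measured. No paired analysis was possible because each side has 1 library and no test was made. Of the log2 ratios 540 stayed within the counting interval of the main value and 60 moved out of it; a further 2, of a gene past the fold, changed sign. Of the medians 449 stayed and 13 moved, of the CPM levels 400 and 188, of the counts of members past the fold 35 and 19, and of the shares of cells, set against unthinned ones, 43 and 65. Ratios short of the fold also changed sign: Id1 to 0.99 in mature-like cells (stricter filter) and -0.51 in committed-like cluster 1, and Id2 to 0.24 in committed-like cells with the members among the variable genes. Over 16 settings each in mature-like cells Bambi (0.45 to 1.13) and Id3 (0.43 to 1.40) stayed above 0 and Bmpr1a (-0.46 to -0.23) below 0. With 20 CPM added Bambi had 0.45 and Id3 0.43, so 0 members passed the fold. The stricter filter (1000 genes and 5% mitochondrial UMIs, leaving 65 and 132 mature-like cells) gave Id3 1.40 and a median of the secreted antagonists of -0.47. Under that filter the median of the members was 0.99 over 5 measured members, against 0.02 over 8 in the main setting. These medians of the members cover different sets of genes, so the gap between them is not only a change of ratios. Bmp4 in endothelial-like cells reversed to -0.32 without its richest cell and to -0.68 under the stricter filter. The share of all genes past the fold was counted in the main setting only. Counts of members past the fold in other settings therefore have no background beside them. In OPC-like cells 2 members passed with 1 CPM added, at resolution 0.5 and with no filter (Id3 lower, Bmp4 higher), 1 at resolution 2, without Scrublet calls, without cells with Cldn5 or Flt1 and with the members among the variable genes (Id3 lower), 1 with each library clustered alone and with centred ratios (Bmp4 higher, 1.18 and 0.55), and 3 without cells with Aqp4 or Gja1. Bmp4 was below 0 there, at -0.12, under the stricter filter. In committed-like cells 3 members passed in cluster 3 alone (Id1 0.53, Id2 -0.68, Smad7 -0.52). With each library clustered alone 2 passed (Id1 1.38, Smad7 -0.80), as under the stricter filter (Id1 0.88, Id2 -0.53). In cluster 1 alone 1 passed, on the lower side (Id1 -0.51). On the higher side 1 passed at resolutions 0.5 and 2 (Id1 0.56 in each) and with no filter (Id1 0.55). Without Scrublet calls 1 passed (Id2 -0.60). The median of the other target genes in committed-like cells, over 2 or 3 genes, was 0.94 in cluster 3 alone, 0.96 at resolutions 0.5 and 2, 0.77 without Scrublet calls, 1.22 with each library clustered alone, 1.12 with the members among the variable genes, 0.95 with no filter and 0.89 under the stricter filter. In OPC-like cells it was 0.18 at a minimum of 200 UMIs. The median of the E protein list was 0.36 in committed-like and -0.051 in mature-like cells with each library clustered alone. The settings without cluster 23, with cluster 1 or 3 alone and without the richest cell were chosen after seeing the data. The cause of these moves was not tested.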

Other observations

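Among the Id genes, Id1 was higher in the named clusters led by mitosis genes than in the other clusters of the same class. This pattern was picked after its values were seen and not tested, and cell division was not scored in any cluster. In the OPC-like cluster 21, led by Aspm, Hmmr and Prc1, Id1 was 167 CPM (136 to 203) over both libraries, from 13 and 19 cells with 299 and 108 CPM. The other OPC-like clusters had 43.2 CPM (37.3 to 49.8) in cluster 7 and 26.2 CPM (21.5 to 31.6) in cluster 11. In the neuroblast-like cluster 17, led by Ube2c, Cenpa and Cdc20, Id1 was 74.2 CPM (65.3 to 84.0) over both libraries, with 78.3 and 70.5 CPM in the libraries. Over both libraries it was 5.88 CPM in cluster 5 and 9.21 CPM in cluster 2. Id1 was 119 CPM in cluster 8, led by Ung and Mcm3, and 116 CPM in cluster 14, led by histone genes and Top2a, over both libraries. Both clusters are unnamed, so they have no class to be compared within. In cluster 8 a single cell held 28.2% of the contralateral and another 20.1% of the ipsilateral Id1 UMIs.

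The other Id genes did not follow this order in both classes. The values given here are over both libraries. Id3 was 6.62 CPM in cluster 21 against 40.8 CPM in cluster 11 and 19.7 CPM in cluster 7. Id2 was 136 CPM in cluster 21, 175 CPM in cluster 11 and 162 CPM in cluster 7. Id4 was 18.2 CPM (9.09 to 32.6) in cluster 21, 14.5 CPM in cluster 11 and 13.0 CPM in cluster 7, within counting error. In the neuroblast-like class Id4 was 162 CPM in cluster 17, 253 CPM in cluster 5 and 200.4 CPM in cluster 2, and Id2 was 21.5, 22.5 and 53.0 CPM. Id3 there was 6.26 CPM (3.87 to 9.56), 4.90 CPM and 2.76 CPM (1.01 to 6.02), with overlapping intervals.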
